A study of Mus musculus with 10 samples.

Results

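The cell division genes are 37 transcripts that cells make when they copy their DNA and divide. They were taken by name: all probes for each of the 37 symbols on the arrays, and the row of each symbol in a deposited table of the whole series. A probe with a RefSeq name was present for 34 of the 37 genes (47 probes), and 29 of them were bright enough to be tested, among 17847 genes tested of 32636 names on the array. All 37 had a row in the deposited table, which gives the only values for Ccnd1, Cdkn3 and Prc1.

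The livers came from 5 mice that drank mulberry leaf extract for 4 weeks and from 5 control mice that did not, 1 Agilent array per mouse. Both groups were male mice of the strain C57BL/6NCrSlc on a diet high in cholesterol, so no group without that diet is compared here. The labels give no ages and say that the extract took the place of drinking water. The series title frames the study around cholesterol synthesis, and cell division is not its stated question.

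A dividing cell passes through G1, copies its DNA in S phase, grows in G2 and separates its chromosomes in M phase. Cyclins switch on kinases that drive each step. The minichromosome maintenance helicase (Mcm2 to Mcm7) opens DNA for copying, and spindle and checkpoint proteins see to it that each daughter cell receives a full set of chromosomes. Hepatocytes of an adult liver are mostly at rest. Replication genes are known as targets of E2F factors, and many mitotic genes carry a cell cycle homology region (CHR) near their start, which the DREAM complex represses at rest and which MuvB with B-MYB and FOXM1 uses in dividing cells.

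Promoters are shown for 6 genes because mitotic and replication transcripts are described apart below, and their promoters are known to differ in these letters. RefSeq windows (GRCm38.p6) from 250 bases before to 50 after the transcript start were matched for 29 of the 37 genes, 33 windows in all. None was matched for Ccna2, Ccnd1, Ccne2, Aurkb, Mcm4, Foxm1, Kif20a and Tpx2. Both strands were searched for the CHR (TTTGAA or TTCGAA), for CCAAT and for E2F letters in any of 4 spellings, TTCCCGC and also TTGGCGC and also TTCGCGC and also TTGCCGC, and matches may overlap. The lines run from 180 bases before the start to 20 bases after it, 5′ to 3′ on the gene's strand, and capitals mark any match.
Ccnb2, chr9:70421535-70421734, minus strand: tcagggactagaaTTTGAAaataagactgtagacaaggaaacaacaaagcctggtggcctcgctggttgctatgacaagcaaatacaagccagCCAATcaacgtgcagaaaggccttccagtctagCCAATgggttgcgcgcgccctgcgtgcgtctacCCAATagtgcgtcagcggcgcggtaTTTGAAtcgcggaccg
Cdc20, chr4:118437324-118437523, minus strand: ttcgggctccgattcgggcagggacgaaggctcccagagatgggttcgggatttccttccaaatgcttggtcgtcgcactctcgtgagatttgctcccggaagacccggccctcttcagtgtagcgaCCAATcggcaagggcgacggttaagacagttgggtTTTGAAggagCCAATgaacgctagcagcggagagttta
Cdk1, chr10:69352893-69353092, minus strand: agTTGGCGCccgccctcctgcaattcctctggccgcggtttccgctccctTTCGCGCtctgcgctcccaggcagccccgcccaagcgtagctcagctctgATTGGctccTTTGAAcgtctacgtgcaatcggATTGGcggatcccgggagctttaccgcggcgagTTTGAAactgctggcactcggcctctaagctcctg
Mcm5, chr8:75109329-75109528, plus strand: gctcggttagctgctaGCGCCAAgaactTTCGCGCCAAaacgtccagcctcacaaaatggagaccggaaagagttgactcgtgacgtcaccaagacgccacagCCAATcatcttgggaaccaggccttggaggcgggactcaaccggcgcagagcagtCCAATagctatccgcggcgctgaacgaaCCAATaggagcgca
Mcm6, chr1:128359686-128359885, minus strand: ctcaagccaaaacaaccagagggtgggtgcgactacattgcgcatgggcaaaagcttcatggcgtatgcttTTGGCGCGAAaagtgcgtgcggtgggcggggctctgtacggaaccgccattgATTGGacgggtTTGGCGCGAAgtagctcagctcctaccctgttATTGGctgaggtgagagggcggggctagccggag
Tyms, chr5:30073606-30073805, minus strand: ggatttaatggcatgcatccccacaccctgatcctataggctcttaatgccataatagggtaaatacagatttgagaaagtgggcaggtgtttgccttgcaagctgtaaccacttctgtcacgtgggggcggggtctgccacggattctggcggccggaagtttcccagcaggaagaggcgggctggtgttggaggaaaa
The mitotic Ccnb2 and Cdc20 show CHR and CCAAT letters and no E2F letters, Mcm5 and Mcm6 show E2F and CCAAT letters and no CHR, Cdk1 shows all 3 kinds, and Tyms shows none.

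Over all 33 windows, 19 held a CHR (57.6%), against 19.2% of the 32851 RefSeq windows of the same length. CCAAT stood in 27 windows (81.8%), against 37.4% of all windows, and E2F letters in 11 (33.3%), against 9.57%. Among the mitotic kinase and checkpoint genes, 6 of 7 windows held a CHR and 0 of 7 held E2F letters. Among the helicase genes, 2 of 6 windows held a CHR and 5 of 6 held E2F letters. A match is only a run of letters and says nothing of which factor was bound in these livers.

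On the arrays, 54.4% to 62.4% of probes were well above background, and the 75th percentile of the processed intensity lay between 152.8 and 283.3. Levels below are log2 of the processed intensity after that percentile of the array was subtracted on the log2 scale. A gene at level 0 is therefore as bright as the 75th percentile spot, and levels of different genes are not compared. As a check of the labelled tissue, 11 hepatocyte markers had a probe and all 11 were well above background on all 10 arrays. The arrays lay on 4 slides scanned on 2 days: mulberry 3 and 5 with control 2, 3 and 5 on day 1, and mulberry 1, 2 and 4 with control 1 and 4 on day 2. Only slide 3, with mulberry 1, control 1 and control 4, held both groups.

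The control numbers of the 2 kinds of deposited file did not match. Across 12187 genes, each mulberry column of the series table correlated with the array of its own name (r = 0.94 to 0.98). The columns named control 1, 2, 3, 4 and 5 correlated with the arrays named control 5, 1, 2, 3 and 4 (r = 0.89 to 0.97), and with those of their own name at r = -0.51 to -0.04. The group comparison does not depend on these numbers. Control numbers here follow the scanner files, and control values from the series table are given only as a range. Nothing in the sources used here settles which numbering is right.

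Against control livers, 23 of the 29 cell division genes had a higher mean with mulberry and 6 a lower one, and 0 passed the threshold (limma, adjusted p under 0.05). Over all genes tested 0 of 17847 passed (0%; smallest adjusted p = 0.506), and 8388 (47%) had the higher mean with mulberry. The median difference was 0.43 over the 29 genes and -0.017 over all genes, on the log2 scale. At an unadjusted p under 0.05 there were 0 cell division genes, against 924 of all genes (5.18%). The groups overlapped for all 29, whereas 130 of all genes (0.728%) had groups that did not.

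Mulberry 1 carried most of the difference. Averaged over the 29 genes and set against the control mean, the 5 mulberry livers stood at 1.89, 0.66, -0.80, -0.44 and 0.77 (mulberry 1 to 5), and the 5 control livers at -0.26, 0.60, -0.52, -0.0029 and 0.18 (control 1 to 5). The mulberry livers thus lay on both sides of the controls, with an SD of 1.07, against 0.43 among the control livers. Without mulberry 1 the list had 14 genes higher and 15 lower, with a median of -0.0084. Within scan day 1 it had 9 higher and 20 lower (median -0.061), within scan day 2 it had 24 higher and 5 lower (median 0.94), and within slide 3, where mulberry 1 stands alone against 2 controls, 27 higher and 2 lower (median 2.25). With the median of each array as its scale, all genes shifted to a median of -0.17, and the list had 18 higher and 11 lower with a median 0.45 above that of all genes.

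**Figure D1:**
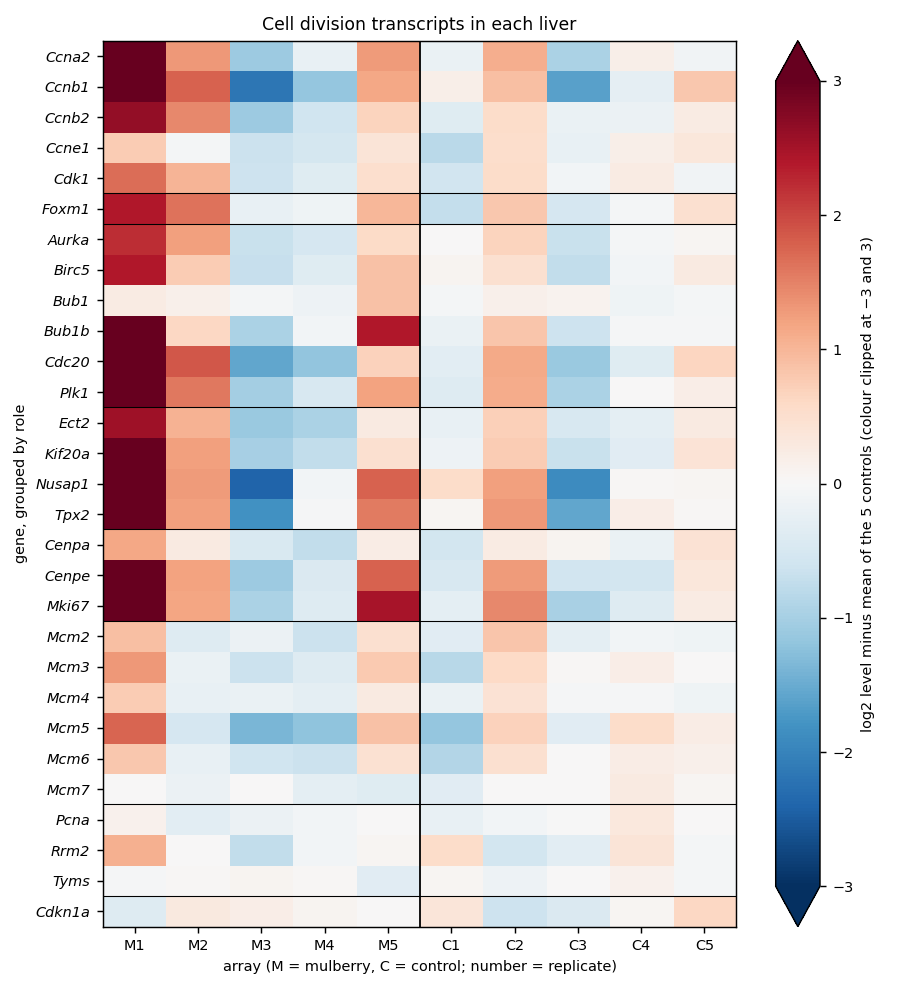
Log2 level of each of the 29 tested cell division genes (rows, grouped by role) in each of the 10 livers (columns, mulberry left of control), relative to the mean of the 5 controls and clipped at 3 in either direction. The column of mulberry 1 is the darkest red, and it lies above all 5 controls for 25 of 29 genes (all genes tested, 17.7%). Mulberry 3 lies below all 5 controls for 16 (all genes tested, 10.3%).

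Counted gene by gene, mulberry 1 lay above all 5 controls for 25 of the 29 genes, against 17.7% of all genes tested. Mulberry 5 did so for 14 (all genes, 16.7%) and mulberry 2 for 13 (all genes, 22.4%). Mulberry 3 lay below all 5 controls for 16 of the 29 genes (all genes, 10.3%) and mulberry 4 for 9 (all genes, 12.1%), and neither lay above all controls for any of them. Mulberry 1 and 5 also stood apart over the whole array: they lay below all 5 controls for 41.7% and 32.2% of all genes tested, against 9.92% to 12.1% for the other mulberry livers. Of the 29 cell division genes, 0 were below all controls in mulberry 1, and 2 genes were so in mulberry 5. The cell division genes also varied more between livers than most genes: their median SD over the 10 arrays was 0.93, against 0.32 over all genes tested. That SD was 1.73 for Nusap1, larger than for 99.7% of genes, and 0.14 for Tyms, larger than for 3.95% of genes. In mulberry 3 the probes of Nusap1, Tpx2, Ccnb1, Foxm1 and Bub1b were not well above background. Nusap1, Tpx2 and Ccnb1 were dim in control 3 as well, and Foxm1 in control 1. The SDs of these genes and their low levels in mulberry 3 thus rest in part on dim values.

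The cyclins and their kinase had 7 genes, of which 5 were tested, 4 with a higher and 1 with a lower mean in mulberry livers (median 0.61). Without mulberry 1 it was 3 and 2 (median 0.10), and within scan day 1 it was 1 and 4 (median -0.34). Ccna2, the cyclin of S phase and G2, had levels of 1.13, -0.78, -3.19, -2.31 and -0.82 in mulberry livers 1 to 5, against -2.29, -0.99, -3.03, -1.92 and -2.20 in control livers 1 to 5. Mulberry 1, 2 and 5 lay above every control and mulberry 3 and 4 below their mean, and the difference of 0.89 ± 0.70 (SE, n = 5 each) did not pass (limma adjusted p = 0.897). Ccnb1, the main cyclin of mitosis, had levels of -0.57, -2.33, -6.26, -5.26 and -2.92 in mulberry livers, against -3.91, -3.18, -5.73, -4.36 and -3.29 in control livers. Its groups overlapped across the whole control range, with a difference of 0.62 ± 0.96 (SE, n = 5 each). The probe used was not well above background in mulberry 3 and control 3. Of the 3 Ccnb1 probes, the others were dimmer and not tested. They were well above background in 3 mulberry and 2 control livers, and in 3 and 1. For Ccnb2, another mitotic cyclin, the levels were 2.46, 1.27, -1.28, -0.77 and 0.49 in mulberry livers, against -0.55, 0.36, -0.39, -0.35 and 0.059 in control livers. The control livers lay within 1 log2 unit of each other and the mulberry livers did not, and the difference was 0.61 ± 0.60.

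Cdk1, the kinase that B cyclins switch on for entry into mitosis, had levels of -0.35, -1.01, -2.65, -2.38 and -1.51 in mulberry livers, against -2.60, -1.47, -2.11, -1.77 and -2.13 in control livers. Mulberry 1 and 2 lay above all controls, mulberry 3 below all, and the difference was 0.43 ± 0.41. Ccne1, the cyclin of the G1 to S step, had a difference of -0.023 ± 0.32, and its other probe gave 0.18 ± 0.25. Ccne2, its close relative, was not well above background on any array. Ccnd1, the cyclin that links growth signals to G1, was measured here only by the deposited series table, with log2 intensities of 9.98, 8.0, 7.69, 8.22 and 8.47 in mulberry livers and a range of 7.13 to 9.03 (median 8.45) in control livers. Mulberry 1 lay above the control range and the other four inside it, and the difference was 0.09 ± 0.46 (limma adjusted p = 0.975).

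Foxm1, the factor that drives transcription of mitotic genes, had the smallest p of the list. Its levels were -1.71, -2.49, -4.35, -4.24 and -3.12 in mulberry livers, against -4.83, -3.32, -4.62, -4.19 and -3.64 in control livers. Mulberry 1, 2 and 5 lay above every control, while mulberry 3 and 4 lay inside the control range. The difference was 0.94 ± 0.51 (SE, n = 5 each; limma adjusted p = 0.897), and 0.57 without mulberry 1. Its probe was dim, and not well above background in mulberry 3 and control 1. It had the same sign in all 25 alternative settings in which it was tested, from 0.13 to 2.80. These settings reuse the same arrays, so the constant sign is not separate evidence. Its dim probe was left out by the filter that asks for all arrays well above background.

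Cdkn1a, the p53 target p21 that inhibits cyclin-dependent kinases, ran otherwise. Its levels were 2.28, 2.95, 2.86, 2.75 and 2.67 in mulberry livers, against 3.03, 2.03, 2.23, 2.72 and 3.27 in control livers. All mulberry livers lay inside the control range, mulberry 1 was the lowest of the mulberry livers, and the difference was 0.044 ± 0.24. The phosphatase gene Cdkn3, which acts on cyclin-dependent kinases and peaks in dividing cells, was measured by the series table alone. Its log2 intensities were 7.66, 6.10, 3.43, 3.26 and 5.09 in mulberry livers, against 3.33 to 5.24 (median 4.46) in control livers. Mulberry 1 and 2 lay above the control range, and the difference was 0.71 ± 0.79.

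All 6 tested genes of the mitotic kinases and checkpoint had a higher mean with mulberry (median 0.59, 0 past the threshold). Without mulberry 1 it was 5 higher and 1 lower (median 0.18), and within scan day 1 it was 3 and 3 (median 0.024). Their average stood at 2.38, 1.04, -0.83, -0.46 and 1.11 in mulberry livers 1 to 5, and between -0.66 and 0.73 in control livers. Bub1b, the checkpoint protein that holds back chromosome separation, had levels of -0.57, -3.01, -4.59, -3.72 and -1.23 in mulberry livers, against -3.83, -2.80, -4.26, -3.67 and -3.67 in control livers. Only mulberry 1 and 5 lay above all controls, and the difference was 1.02 ± 0.68 (limma adjusted p = 0.897). The probe of Bub1b was not well above background in mulberry 3. Plk1, the kinase of mitotic entry and spindle assembly, had levels of 0.80, -0.86, -3.48, -2.94 and -1.24 in mulberry livers, against -2.83, -1.34, -3.41, -2.45 and -2.24 in control livers. Here mulberry 1, 2 and 5 lay above all controls and mulberry 3 just below them, and the difference was 0.91 ± 0.72.

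Birc5, the survivin subunit of the chromosomal passenger complex, had levels of 2.62, 0.98, -0.49, -0.15 and 1.08 in mulberry livers, against 0.30, 0.68, -0.52, 0.13 and 0.47 in control livers. Mulberry 1, 2 and 5 were again above all controls, with a difference of 0.60 ± 0.51. Cdc20, which activates the anaphase-promoting complex, had levels of 2.81, 1.62, -1.79, -1.42 and 0.46 in mulberry livers, against -0.56, 0.90, -1.36, -0.61 and 0.41 in control livers. Mulberry 1 and 2 lay above all controls and mulberry 3 and 4 below all, and the difference was 0.58 ± 0.83. The spindle pole kinase gene Aurka had a difference of 0.57 ± 0.50. The checkpoint kinase gene Bub1 had a difference of 0.21 ± 0.19, with mulberry 5 the highest array at 0.83 and mulberry 1 at 0.20. Its other probe, well above background only in 1 mulberry liver, was highest in mulberry 1 (-3.05, with mulberry 5 at -4.81). The probes of Bub1 thus differed in the highest liver. Of the remaining kinases, Aurkb was well above background in 2 mulberry and 0 control livers, and Ttk in 1 of each, so neither was tested and no fold is given.

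Of 6 genes of the spindle and of cytokinesis 4 were tested, and all 4 had a higher mean with mulberry (median 0.72, 0 past the threshold). Their average stood at 3.11, 1.20, -1.58, -0.45 and 1.02 in mulberry livers, and between -1.14 and 1.0 in control livers. The averages of -1.58 (mulberry 3) and -1.14 (control 3) rest in part on Tpx2 and Nusap1, whose probes were not well above background there. Tpx2, which activates the Aurka kinase at the spindle, had a difference of 0.84 ± 0.83, and Nusap1, a microtubule binding protein, 0.83 ± 0.96. Kif20a, a motor of cytokinesis, had 0.60 ± 0.67, and Ect2, which sets the cleavage furrow, 0.36 ± 0.61. Without mulberry 1 the median of the 4 was 0.069, with 2 higher and 2 lower, and within scan day 1 all 4 were lower (median -0.27). Kif11, the motor that pushes the spindle poles apart, was well above background in 1 mulberry and 0 control livers and was not tested. Prc1, the bundling protein of the central spindle, was measured by the series table, with log2 intensities of 8.78, 7.48, 5.08, 5.45 and 7.24 in mulberry livers and 5.01 to 7.07 (median 6.00) in control livers. Mulberry 1, 2 and 5 lay above the control range, and the difference was 0.78 ± 0.67.

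Among the genes of chromosome structure and the centromere, Mki67, the Ki-67 protein that coats mitotic chromosomes and marks cycling cells, had the largest difference of the list. Its levels were 1.66, -0.44, -2.57, -2.0 and 0.85 in mulberry livers, against -1.91, -0.19, -2.60, -2.01 and -1.37 in control livers. Mulberry 1 and 5 lay above all controls and the other three inside the control range. The difference was 1.12 ± 0.78 (SE, n = 5 each; limma adjusted p = 0.897), and without mulberry 1 the difference was 0.58. The other probe gave 0.89 ± 0.95, but it was dim, well above background in 4 mulberry and 3 control livers, and was tested only through the mulberry livers. Cenpe, a kinetochore motor, had levels of 1.12, -0.72, -3.01, -2.36 and -0.14 in mulberry livers, against -2.41, -0.64, -2.50, -2.47 and -1.59 in control livers. The same livers, mulberry 1 and 5, lay above all controls, mulberry 3 lay below all, and the difference was 0.90 ± 0.72. Cenpa, the histone of centromeres, had a difference of 0.089 ± 0.33.

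Top2a, the topoisomerase that untangles chromosomes, was too dim to be tested. Its levels were -2.69, -4.40, -6.73, -5.93 and -3.57 in mulberry livers, against -6.57, -3.78, -6.63, -6.26 and -5.88 in control livers. It was well above background in mulberry 1, 2 and 5 and in control 2, and on no other array.

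**Figure D2:**
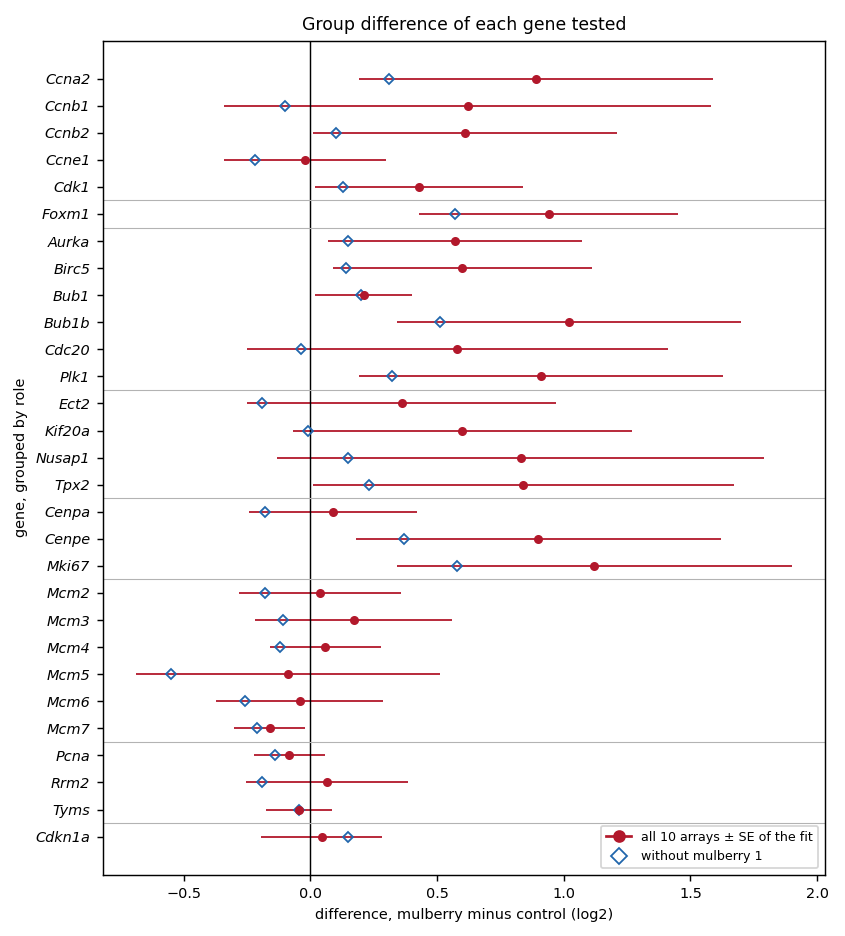
Difference between mulberry and control livers (log2) for each of the 29 tested genes, grouped by role, with all 10 arrays (filled circles, bars are the SE of the fit) and without mulberry 1 (open diamonds). Genes of chromosomes, mitotic kinases and the spindle lie between 0.089 (Cenpa) and 1.12 (Mki67) with all arrays, the helicase genes lie between -0.16 and 0.17, and most diamonds lie to the left of their circles.

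The replication genes had smaller differences. Of the 6 helicase genes 3 had a higher and 3 a lower mean with mulberry (median -0.0021, 0 past the threshold), and 1 of 6 had a higher mean when each array was scaled by its median. Their average stood at 0.92, -0.29, -0.50, -0.58 and 0.42 in mulberry livers 1 to 5, and between -0.63 and 0.50 in control livers. Without mulberry 1, all 6 had a lower mean with mulberry (median -0.19), and 0 passed. Within scan day 1 it was 1 higher and 5 lower (median -0.17), and within scan day 2 it was 5 higher and 1 lower (median 0.25). In mulberry 2 the helicase average was thus below the control mean, while the averages of the mitotic kinases (1.04) and of the spindle genes (1.20) were above every control liver. Whether the 2 kinds of gene differ in their response was not tested.

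Mcm2 had levels of -1.42, -2.72, -2.51, -2.97 and -1.84 in mulberry livers, against -2.66, -1.49, -2.63, -2.41 and -2.46 in control livers. Mulberry 1 and control 2 were the highest, and the difference was 0.039 ± 0.32. Mcm3 had levels of -0.55, -2.04, -2.48, -2.23 and -1.06 in mulberry livers, against -2.68, -1.25, -1.81, -1.64 and -1.83 in control livers. Mulberry 1 and 5 lay above all controls and the other three between the lowest control and the rest (0.17 ± 0.39). Mcm4 had levels of 1.57, 0.58, 0.59, 0.50 and 1.08 in mulberry livers, against 0.60, 1.23, 0.76, 0.77 and 0.67 in control livers. Only mulberry 1 was above all controls, and the 3 lowest mulberry livers lay below all of them (0.059 ± 0.22).

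Mcm5 had levels of 0.51, -1.74, -2.62, -2.44 and -0.37 in mulberry livers, against -2.40, -0.55, -1.57, -0.68 and -1.01 in control livers. It was the most variable of the 6 helicase genes, with mulberry 1 and 5 above all controls and mulberry 3 and 4 below all (-0.089 ± 0.60). Mcm6 had levels of 2.90, 1.86, 1.49, 1.44 and 2.55 in mulberry livers, against 1.21, 2.56, 2.11, 2.32 and 2.25 in control livers. Mulberry 1 alone lay above all controls (-0.043 ± 0.33). Mcm7 had levels of 2.39, 2.20, 2.38, 2.09 and 2.01 in mulberry livers, against 2.04, 2.38, 2.40, 2.64 and 2.43 in control livers. It did not follow the others: mulberry 1 lay inside the control range, mulberry 5 was the lowest of the 10 arrays, and the difference was -0.16 ± 0.14.

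Pcna, the sliding clamp of the replication fork, had levels of 3.51, 3.06, 3.21, 3.30 and 3.39 in mulberry livers, against 3.15, 3.30, 3.37, 3.69 and 3.38 in control livers. The livers spread little (SD over 10 arrays 0.18), with a difference of -0.083 ± 0.14. Rrm2, the ribonucleotide reductase subunit of S phase, had levels of -1.0, -2.07, -2.80, -2.16 and -2.01 in mulberry livers, against -1.53, -2.62, -2.39, -1.68 and -2.14 in control livers. Mulberry 1 was the highest and mulberry 3 the lowest (0.065 ± 0.32), and control 2, the highest control over the list as a whole, was here the lowest control. Tyms, the enzyme that makes thymidylate, had levels of 1.48, 1.55, 1.61, 1.55 and 1.17 in mulberry livers, against 1.58, 1.37, 1.52, 1.65 and 1.45 in control livers. Mulberry 1 lay inside the control range, and the difference was -0.046 ± 0.13, or -0.11 ± 0.12 by its other probe.

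Of the other genes of these pathways, 0 passed the threshold. Of 40 other mitotic genes 28 were tested, 24 with a higher and 4 with a lower mean in mulberry livers (median 0.45), and without mulberry 1 it was 18 and 10 (median 0.11). Within scan day 1 it was 15 and 13 (median 0.034). The kinetochore gene Spc25 had a difference of 0.44 ± 0.19 (limma adjusted p = 0.897, unadjusted p under 0.05), the ubiquitin-conjugating enzyme gene Ube2c 1.11 ± 0.54, and the phosphatase gene Cdc25b 0.69 ± 0.35. For Spc25 mulberry 1 was not the highest: its levels were 0.22, 0.42, 0.18, 0.036 and -0.042 in mulberry livers, against -0.21, -0.45, -0.40, 0.35 and -0.66 in control livers. Only control 4 reached into the mulberry range.

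Of 24 other genes of replication origins and forks 21 were tested, 6 with a higher and 15 with a lower mean in mulberry livers (median -0.15). The direction turned within scan day 2, with 15 higher and 6 lower (median 0.12), and within slide 3, with 17 higher and 4 lower (median 0.43). Slide 3 lies within scan day 2, and both hold mulberry 1, the only mulberry liver whose average was above the control mean (0.39). Without mulberry 1 it was 2 higher and 19 lower (median -0.18), and within scan day 1 it was 4 and 17 (median -0.27). Gmnn, the inhibitor of renewed origin licensing, had levels of 3.62, 3.57, 3.48, 3.41 and 3.47 in mulberry livers, against 3.72, 3.70, 3.72, 3.81 and 3.80 in control livers. All mulberry livers lay below all controls, as in 0.728% of all genes in either direction, and the difference of -0.24 ± 0.11 did not pass (limma adjusted p = 0.897, unadjusted p under 0.05). The single-strand binding protein gene Rpa2 had -0.29 ± 0.18 and the thymidine kinase gene Tk1 -0.28 ± 0.22.

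Among 15 tested transcription regulators of the cell cycle, 7 had a higher and 8 a lower mean with mulberry (median -0.067), with E2f8 at 0.77 ± 0.41, Mybl2 at 0.40 ± 0.22 and Lin9 at -0.31 ± 0.22. The probe of E2f8 was well above background in 5 mulberry and 3 control livers, so it entered the test only through the mulberry livers, where it was higher, and its difference rests in part on dim control values. Of 9 tested G1 cyclins, kinases and inhibitors 7 were higher and 2 lower (median 0.13), with the cyclin gene Ccnd3 at 0.23 ± 0.17, the kinase inhibitor gene Cdkn2d at 0.15 ± 0.15 and the kinase gene Cdk4 at -0.10 ± 0.11. Of 14 tested p53 target genes 7 were higher and 7 lower (median -0.00083), with Phlda3 at 0.59 ± 0.28, Gadd45b at 0.77 ± 0.46 and the death gene Bbc3 at 0.17 ± 0.16. In mulberry 1 the averages of these last 2 lists were 0.075 and 0.14, against 1.67 for the other mitotic genes.

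**Figure D3:**
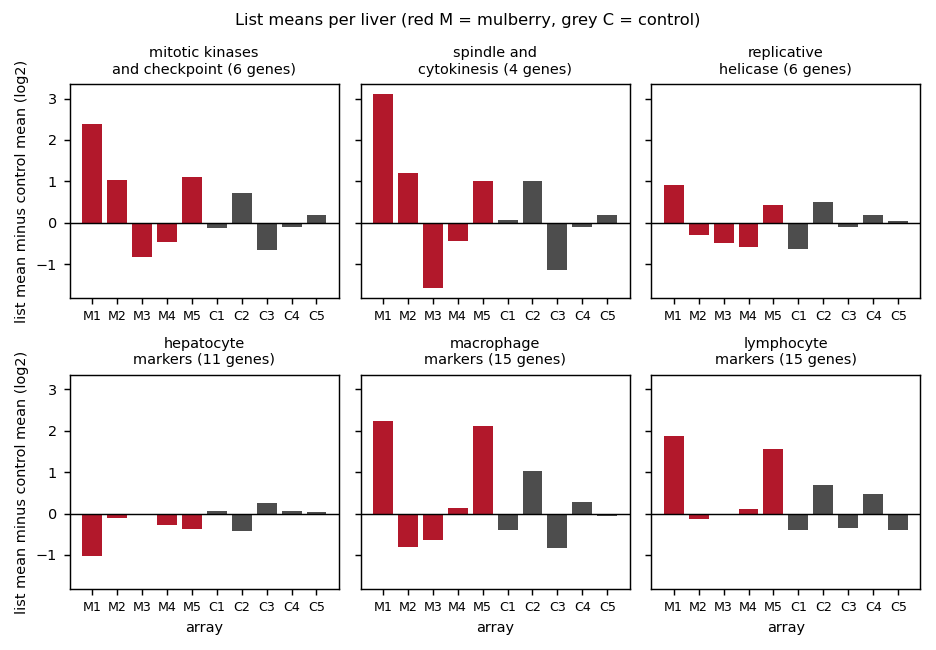
Average log2 level per liver, relative to the mean of the 5 controls, for 3 groups of cell division genes (top) and 3 lists of cell type markers (bottom), with mulberry livers in red to the left of control livers in grey. Mulberry 1 is the highest array in the 3 upper panels and in the macrophage and lymphocyte panels, and the lowest in the hepatocyte panel, while mulberry 2 is high for mitotic and spindle genes and low for macrophage markers.

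On average, markers of other cells moved with these genes in part of the livers. Of 17 macrophage markers 16 had a probe and 15 were tested, and their average stood at 2.24, -0.80, -0.63, 0.13 and 2.11 in mulberry livers 1 to 5, and between -0.83 and 1.03 in control livers, where control 2 was the highest. Of 18 lymphocyte markers 15 were tested, with averages of 1.88, -0.14, -0.031, 0.12 and 1.57 in mulberry livers and -0.41 to 0.70 in control livers. Of 11 neutrophil markers 6 were tested, with 1.43, 0.11, -0.091, 0.030 and 1.48 in mulberry livers and -0.59 to 0.71 in control livers. All 10 stellate cell markers were tested, with 1.1, -0.12, -0.18, 0.23 and 1.24 in mulberry livers and -0.38 to 0.29 in control livers. By these averages, mulberry 1 and 5 were the 2 highest arrays in all 4 lists. They were so too for the cell division genes as a whole (1.89 and 0.77, with mulberry 2 at 0.66), for the mitotic kinases and for the chromosome genes. Not every marker followed its list. Mulberry 1 was the lowest array for Cd4 (lymphocyte), Prtn3 (neutrophil) and Reln (stellate), and lay inside the control range for the macrophage marker Clec4f. For the spindle genes, the cyclins and Foxm1 the 2 highest were mulberry 1 and 2. Mulberry 1 was followed by control 2 for the helicase genes (0.50, with mulberry 5 at 0.42). It was followed by control 4 for the average of Pcna, Rrm2 and Tyms (0.28, with mulberry 5 at -0.091). Cdkn1a was highest in control 5.

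The 11 hepatocyte markers had averages of -1.03, -0.12, -0.0080, -0.27 and -0.38 in mulberry livers, against -0.42 to 0.25 in control livers, and mulberry 1 was the lowest array. Mulberry 2, with mitotic kinases at 1.04, had macrophage markers at -0.80 and hepatocyte markers at -0.12, both inside the control range. The markers of endothelial cells averaged 0.19, -0.16, -0.25, 0.036 and 0.16 in mulberry livers (-0.19 to 0.13 in control livers), those of bile ducts 0.62, -0.19, -0.51, 0.10 and -0.14 (-0.42 to 0.48), and those of red cells -0.36, 0.20, -0.074, -0.22 and -0.28 (-0.10 to 0.14). The part of other cell types in the cell division values was not tested. In a piece of liver, more dividing cells and more RNA per dividing cell cannot be told apart, nor can hepatocytes that divide and other cells that do.

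Without mulberry 1 and mulberry 5, chosen after their values were seen, the 29 genes had 6 higher and 23 lower means with mulberry (median -0.17), and 0 passed the threshold. Control 2, which shared raised macrophage markers with them, was then the highest of the remaining arrays for that marker list. With control 2 left out as well, the 29 genes had 16 higher and 13 lower means (median 0.015). The sign of the median thus depended on which of these livers were included.

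**Figure D4:**
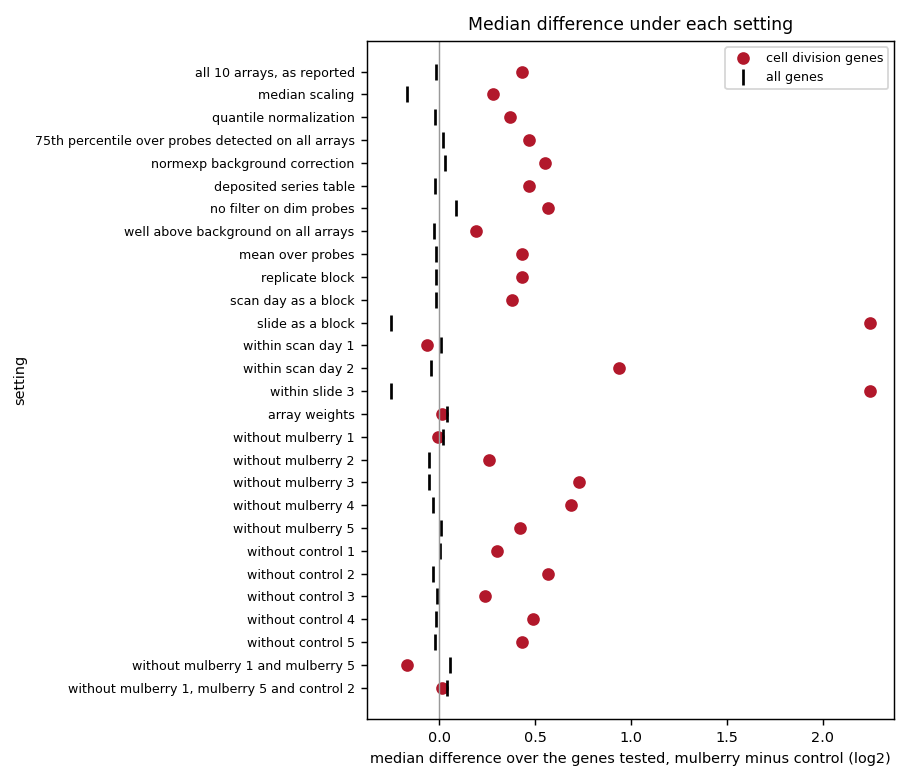
Median difference between mulberry and control livers (log2) over the tested cell division genes (red circles) and over all genes tested (black bars), under each setting, with all 10 arrays on top. The circles lie at 0.43 with all arrays, at -0.0084 without mulberry 1 and at 2.25 within slide 3, while the bars stay between -0.25 and 0.086.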

How the data were processed

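Liver RNA of 5 mulberry and 5 control mice (500 ng per array, per the labels' protocols) was labelled with Cy3 and hybridised in 1 colour. The deposited scanner files held spot intensity, which the authors, per the submitters' processing notes, obtained with Agilent Feature Extraction (version 10.1.1.1). Background was subtracted within each array and, per the file headers, nothing was scaled across arrays. The deposited series table gave 1 linear intensity for each gene symbol, with a normalization not stated in the labels or file headers.

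Outlier spots were left out, replicate spots averaged, and the 75th percentile (log2) of the spots that were not controls was subtracted on each array. Probes were named through RefSeq accessions (GRCm38.p6): 25070 of 41128 probes matched. The brightest probe of a gene over the 10 arrays was used, and tested where 4 or more arrays of a group had it well above background. limma 3.58.1 in R 4.3.3 (lmFit and eBayes, two-sided) gave differences, mulberry minus control, with Benjamini-Hochberg adjustment over all 17847 genes and a threshold of 0.05. The fit was tested on simulated data. p-values measure the spread between these mice, and the number of arrays limits the precision.

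The members and gene lists were chosen with earlier results of these data known. Every member is named; arrays are given in full for those the results turn on, and up to 3 genes with the smallest p for each other list. Alternatives were other scalings, filters and probe rules, normexp (offset 50) and the series table (log2). Further alternatives were blocks for replicate number, scan day and slide, array weights, and leaving out each array. Normexp used the median spot signal in place of the planned mean signal, which the scanner data did not hold. Figures were drawn with matplotlib 3.10.9. Probe sequences were not aligned, and 0 columns were left unmapped.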

Additional observations from a re-analysis of the deposited data

Results flagged for a closer look

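Among the 29 tested genes and their mean, 60 sets of 5 levels were examined for 1 liver standing far from the other four, and 2 were found, where about 3 are expected by chance. Both concern control 2 and the helicase genes. For Mcm2 the level in control 2 was -1.49, against -2.66 to -2.41 in the other controls, a gap of 0.789 of the group's range. For Mcm4 it was 1.23, against 0.60 to 0.77, a gap of 0.727 of the range. Control 2 also had the highest macrophage marker average of the controls (1.03), and its part in these levels was not tested.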

How the results depend on the processing

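Of 774 gene differences recomputed under the alternatives, 122 had the other sign, and 0 cell division genes passed the threshold under any of them. Over all genes, 1 passed with array weights, without mulberry 1 and 5, and without these and control 2, and 0 to 1 with 1 array left out. The median of the cell division genes was -0.061 within scan day 1, 0.94 within scan day 2, 2.25 within slide 3 and with the slide as a block, -0.17 without mulberry 1 and 5, and -0.0084 to 0.73 with 1 array left out. Their mean group difference, 0.42 with all arrays, was -0.10 within scan day 1, 2.02 within slide 3, -0.19 without mulberry 1 and 5, and -0.066 without these and control 2, where 25 genes were tested after the filter was applied again. At an unadjusted p under 0.05 there were 10 genes after normexp correction, all higher with mulberry (smallest adjusted p = 0.68), 17 with the slide as a block, 21 within slide 3 (smallest adjusted p = 0.091), 1 without mulberry 1 and 5, and 0 to 5 with 1 array left out. Of all genes, 4.16% had such a p after normexp correction and 20.3% with the slide as a block. The share was 9.84% without mulberry 1 and 5, and 3.11% to 7.42% with 1 array left out. The cause of the changes between settings was not tested. Slide 3 compares mulberry 1 alone with 2 controls, and that slide alone informs the fit with the slide as a block. The median within slide 3 thus rests on 1 mulberry liver, and no count of genes by p is given for it. The 2 settings without several arrays were chosen after seeing the data. Array weights gave a median of 0.014. The replicate numbers did not pair the livers (r of deviations -0.26, -0.44, 0.41, 0.0098 and -0.026 for numbers 1 to 5), and with the replicate block the median was 0.43 with 0 calls. The dim probes of Top2a, Aurkb, Kif11, Ttk and Ccne2 give no difference.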
